A study of Caenorhabditis elegans with 12 samples.

Results

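The chemoreceptor genes of *C. elegans* were examined in RNAseq libraries of FW1256-exposed WT, *eat-2* mutants and unexposed WT. Protein-coding genes and pseudogenes were taken whose WormBase symbol places them in a chemoreceptor family (*sra*, *srab*, *srb*, *srbc*, *srd*, *sre*, *srg*, *srh*, *sri*, *srj*, *srm*, *srn*, *srr*, *srsx*, *srt*, *sru*, *srv*, *srw*, *srx*, *srxa*, *srz* or *str*), and those with a summed count of at least 60 over the 12 libraries were kept, so that members were selected on their summed counts. The count tables listed 5272 genes, among them 1902 pseudogenes and 3363 of the 19985 protein-coding genes annotated in WBcel235. Shares over all genes below therefore refer to the listed genes and not to the genome. Of the 5272, 362 belonged to these families (48 protein-coding genes and 314 pseudogenes), and 66 passed the count rule, 16 of them protein-coding and 50 pseudogenes. One of these, *srd-71*, is annotated at 2 places on chromosome V of the WBcel235 genome (2423287-2426206 and 2531566-2534485), and both entries carried identical values in every library. It was counted once, so 65 members are described below.

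The study asked whether FW1256, a slow H2S-releasing compound, acts on gene expression as the *eat-2* mutation does, a feeding defect used as a genetic model of caloric restriction. FW1256-exposed WT were N2 worms given 500 µM of the donor from the first larval stage. The *eat-2* mutants were strain DA1116, without the donor, so that the mutation and any other difference of this strain from N2 cannot be told apart. Unexposed WT were N2 worms without the donor, and every group had 4 libraries, each from a pool of whole worms at day 6 of age. The paper reports slower development and a later peak of egg laying in both other groups than in unexposed WT. Worms of equal age may therefore differ in stage between groups, which cannot be told apart from the exposure or the mutation. Every sample carries the same exposure text in its labels, and the exposure was assigned from the sample titles and the design text. The labels do not say that the 4 libraries of a group came from separate cultures, so p-values measure the spread between these libraries, which may be technical in part.

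Chemoreceptors are G protein-coupled receptors through which nematodes detect odorants, tastants and pheromones. Most of those studied are made in small numbers of ciliated sensory neurons, where the receptors are carried to the cilia and signal through G proteins to cyclic nucleotide-gated or TRPV channels. The families are sorted into the superfamilies Str (here *srd*, *srh*, *sri*, *srj* and *str*), Srg (*srg*, *srt*, *sru*, *srx* and *srxa*) and Sra (*srab* and *srb*), beside families that stand alone (*srbc*, *srr*, *srsx*, *srw* and *srz*). They arose by repeated duplication, largely on chromosome V, and many copies carry disabling changes and are annotated as pseudogenes, whose RNA encodes no intact receptor in the reference strain.

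Of the 65 members, 40 belonged to Str, 11 to Srg, 3 to Sra and 11 to the families that stand alone. The largest families were *srh* with 16 members, *srd* with 8 and *sri* with 8. Chromosome V held 43 members, chromosome II 11, chromosome IV 6, chromosome III 3, and chromosomes I and X 1 each. A list of 38 receptors with a described ligand or cell had 1 gene in the count tables, *srt-45*, which was below the count rule with a summed count of 36, and therefore no member. The members next above the rule were *srx-11*, *srz-80* and *sri-35* with summed counts of 61.9, 64.5 and 64.9, and the family genes next below it were *str-259*, *srx-74* and *srt-57* with 57.9, 57.6 and 55.9.

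The tables held between 14769332 and 19199982 estimated counts per library, which are totals over the listed genes and not the full depth. Levels are given as CPM (the usual counts relative to the library total, with factors from the trimmed mean of M values, TMM), and 1 CPM stood for 14.8 to 19.2 counts before these factors. FW1256-exposed WT had 4194 to 4257 genes with a count, *eat-2* mutants 4609 to 4666 and unexposed WT 4396 to 4585. The members were low: their mean level in unexposed WT had a median of 0.660 CPM and ran between 0.117 and 24.5 CPM, against a median of 48.7 CPM over the 3963 genes of the tables with a summed count of at least 60. In unexposed WT 43 members were under 1 CPM and 2 were at 10 CPM or above. Per kilobase of exon, the highest level in unexposed WT was that of *srw-85* with 12.6 CPM per kb, followed by *srh-158* with 7.94 and *sri-44* with 6.08, and the median of the members was 0.621 CPM per kb. Counts of this size limit precision, and the exons of 9 members overlap another annotated gene. The strand used in counting is not given in the sources used here, so reads of overlapping genes, and of near-identical copies, cannot be told apart.

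Summed over all members, chemoreceptor RNA was lowest in FW1256-exposed WT and highest in *eat-2* mutants. The 4 libraries of FW1256-exposed WT had 80.8, 91.7, 91.7 and 90.9 CPM, those of *eat-2* mutants 137.6, 140.7, 138.0 and 127.1 CPM, and those of unexposed WT 125.3, 108.7, 107.9 and 118.2 CPM. No value of one group lay within the range of another. The most abundant pseudogene, *srh-158*, was higher in FW1256-exposed WT than in the other groups, and without it the sum was 52.5 to 55.6 CPM in FW1256-exposed WT, 108.3 to 114.1 CPM in *eat-2* mutants and 81.6 to 103.7 CPM in unexposed WT. Without the 10 most abundant members, the sums averaged 21.8 ± 1.63, 66.3 ± 2.30 and 39.7 ± 6.36 CPM in the same 3 groups (mean ± SD, n = 4 each). The other family genes, all below the count rule, gave 8.63 to 10.8 CPM in FW1256-exposed WT, 34.3 to 42.0 CPM in *eat-2* mutants and 17.6 to 22.3 CPM in unexposed WT, again with no overlap. Pseudogenes of other kinds below the same count had this order too, with 25.3 to 38.6 CPM in FW1256-exposed WT, 83.8 to 104.2 CPM in *eat-2* mutants and 51.4 to 67.7 CPM in unexposed WT. The 756 at or above it had 14481 to 18688, 15407 to 16424 and 15118 to 15831 CPM in the same 3 groups, which overlapped. In these RNA pools of whole worms, fewer cells with a transcript and less transcript per cell cannot be told apart.

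**Figure D1:**
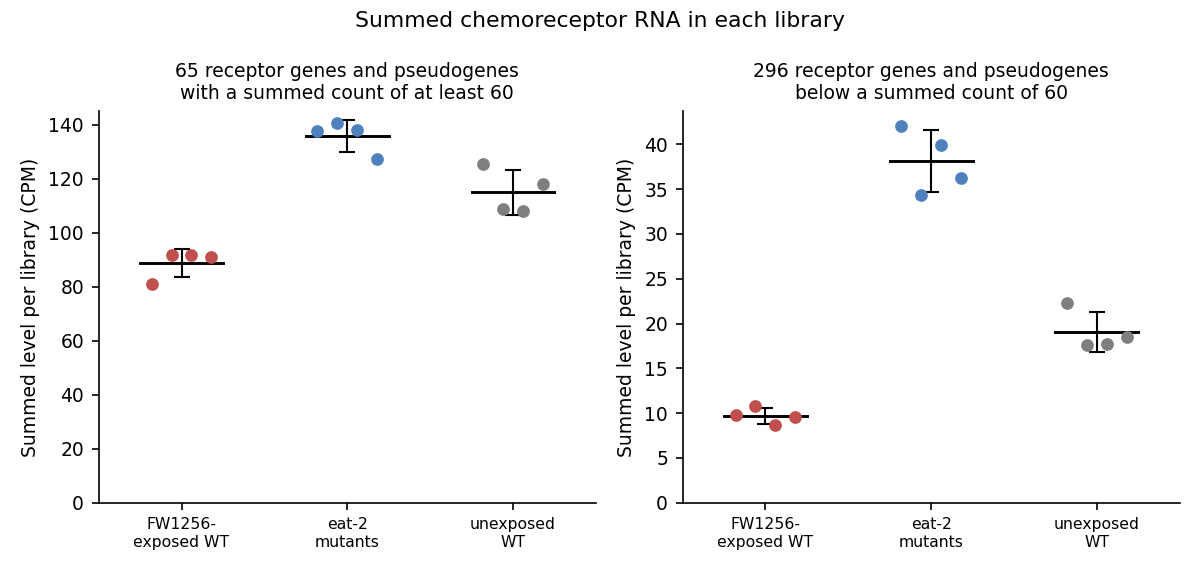
Summed level of chemoreceptor RNA in each library (vertical axis, CPM, from 0) for the 65 members (left) and the family genes below the count rule (right). Points are libraries, horizontal lines are means and bars are SD (n = 4 a group). In each panel the FW1256-exposed WT libraries lie lowest and the *eat-2* libraries highest, with no overlap between groups.

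Member by member, 49 of 65 had a lower mean level in FW1256-exposed WT than in unexposed WT, and 54 of 65 had a higher mean in *eat-2* mutants than in unexposed WT. Over the 3963 genes with a summed count of at least 60, the mean was lower with FW1256 for 2034 and higher in *eat-2* mutants for 2118. For the 756 pseudogenes of other kinds among them these counts were 506 and 542. No share over all genes was taken for the orders of 3 means that follow. FW1256-exposed WT had the lowest of the 3 means for 49 members and *eat-2* mutants the highest for 52. The order *eat-2* mutants, unexposed WT, FW1256-exposed WT held for 41 members. The highest mean lay in FW1256-exposed WT for 5 members and in unexposed WT for 8.

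**Figure D2:**
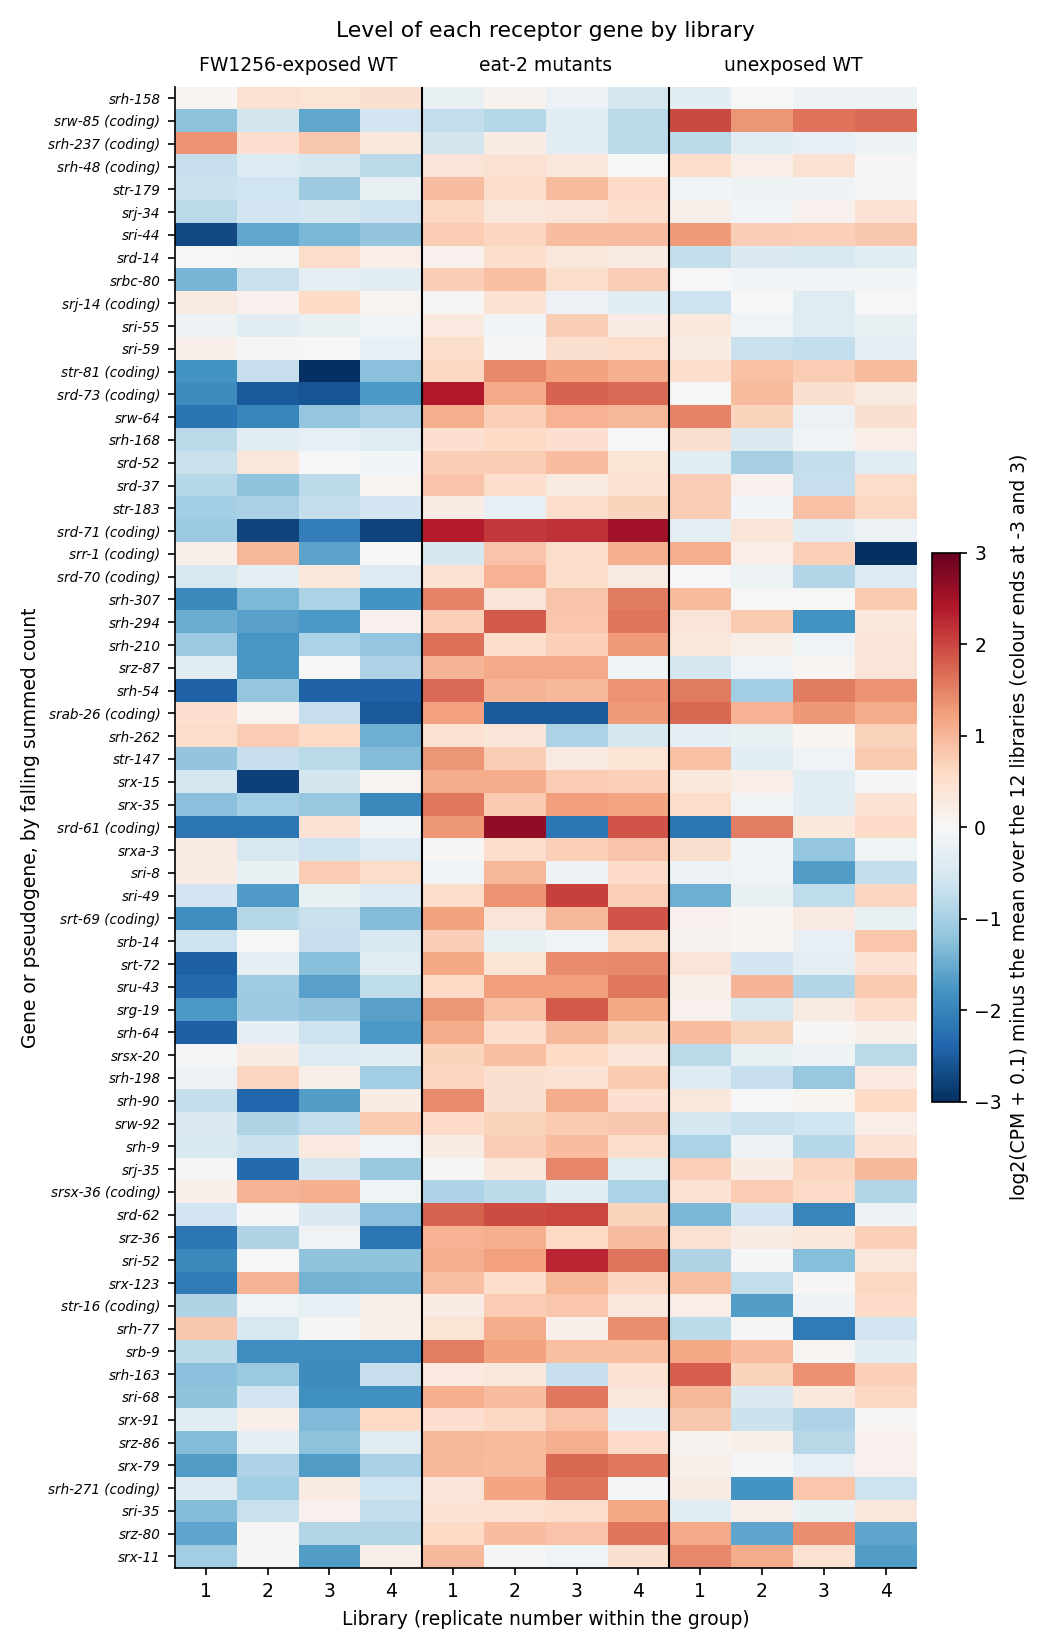
Level of each of the 65 members (rows, in falling order of summed count; protein-coding genes are marked) in each of the 12 libraries (columns, by group). Colour gives log2(CPM + 0.1) minus the mean of that member over all libraries, blue for lower and red for higher. The means of 49 members were lowest in FW1256-exposed WT and those of 52 were highest in *eat-2* mutants, and *srw-85*, second from the top, is red in unexposed WT alone.

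The first comparison set FW1256-exposed WT against unexposed WT. Among all 65 members, the libraries of the groups did not overlap for 30: 26 lay lower in FW1256-exposed WT and 4 higher. Over the 3963 genes with a summed count of at least 60, 22.6% lay lower without overlap and 23.5% higher. In the edgeR quasi-likelihood test, 28 members passed the filter on low counts, and of these 11 fell and 3 rose at a Benjamini-Hochberg adjusted p under 0.05. Over all 3616 genes tested, 24.8% were lower and 25.5% higher. Of 566 tested pseudogenes of other kinds, 31.6% were lower and 16.6% higher, near the 33.3% and 11.1% of the 18 tested pseudogene members. The median log2 fold change was -0.63 over the 28 members and 0.00 over all genes tested. A member can pass the filter through the group in which it is high, so these counts describe the tested members alone. Among others, *srd-73*, *srw-64*, *str-81*, *srh-307*, *srh-210* and *srab-26* passed it through the unexposed libraries. Their differences between exposed and unexposed WT, given below, are a description. Without the filter all 65 members were tested, and 21 were lower and 3 higher, where 18.2% of all genes tested that way were lower and 18.7% higher.

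Among the protein-coding members, *srw-85* showed one of the largest falls. Genes of the *srw* family resemble receptors for FMRFamide-like peptides. *srw-85* (V:19429387-19431136, minus strand) had 2.31, 3.73, 1.83 and 3.67 CPM in FW1256-exposed WT, against 22.3, 14, 17.5 and 18.2 CPM in unexposed WT. Every exposed library lay far below every unexposed one, and the log2 fold change was -2.65 ± 0.26 (SE; edgeR adjusted p = 4.57e-05). The other tested *srw* member, the pseudogene *srw-64* (IV:7060192-7061778, minus strand), had 0.165, 0.211, 0.441 and 0.516 CPM in exposed WT, against 3.28, 1.83, 0.973 and 1.58 CPM in unexposed WT. It fell by 2.53 on the log2 scale (SE 0.49; edgeR adjusted p = 0.00225), and the groups did not overlap, although the unexposed libraries were widely spread.

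In the *srd* family, the protein-coding *srd-73* (V:2419081-2421583, plus strand) had the largest fall of all members tested. Its level was 0.165, 0.0704, 0.063 and 0.193 CPM in FW1256-exposed WT, which is 8 estimated counts over 4 libraries, against 0.87, 1.78, 1.26 and 1.08 CPM or 89 counts in unexposed WT. The log2 fold change was -3.26 ± 0.45 (edgeR adjusted p = 0.000327), and the groups were far apart. *srd-73* passed the filter through the unexposed libraries, so this fall is a description. Its neighbour *srd-71* had too few counts in both groups to pass the filter. It had 0.22, 0, 0.063 and 0 CPM in exposed WT, against 0.461, 0.809, 0.458 and 0.507 CPM in unexposed WT, without overlap but on 5 counts against 40. These are the counts of 1 of its 2 entries, and whether its reads were divided between them was not tested.

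In the *sri*, *srj* and *str* families 1, 1 and 2 members fell. The *str* family includes *odr-10*, the receptor gene for diacetyl. The pseudogene *sri-44* (II:671542-673844, minus strand) had 0.385, 0.985, 1.13 and 1.29 CPM in exposed WT, against 7.63, 5.18, 5.1 and 5.51 CPM in unexposed WT, a log2 fold change of -2.64 ± 0.34 (edgeR adjusted p = 0.000239). The protein-coding *str-81* (V:19225521-19251083, minus strand) had 0.275, 0.704, 0 and 0.451 CPM in exposed WT, against 1.79, 2.32, 2.12 and 2.41 CPM in unexposed WT, and a log2 fold change of -2.61 ± 0.59 (edgeR adjusted p = 0.00478). Neither gene had overlapping groups. The span of *str-81* holds several other annotated genes, and its exons overlap the pseudogene *F21D9.5* on the opposite strand. The pseudogene *str-183* had 0.645 ± 0.107 CPM in exposed WT and 1.86 ± 0.508 CPM in unexposed WT (mean ± SD, n = 4 each) and was also called lower, at a log2 fold change of -1.53 ± 0.31. The pseudogene *srj-34* (V:9941691-9942999, minus strand) had 2.25, 2.67, 2.77 and 2.58 CPM in exposed WT, against 4.56, 3.83, 4.41 and 5.45 CPM in unexposed WT. This was a smaller fall, with a log2 fold change of -0.84 ± 0.19 (edgeR adjusted p = 0.0050), between groups that did not overlap. Another pseudogene, *str-179*, was also lower without overlap (2.59 ± 0.65 CPM in exposed WT and 3.68 ± 0.111 CPM in unexposed WT) but missed the threshold (log2 fold change -0.51 ± 0.22, edgeR adjusted p = 0.0789). It passed when FW1256 replicate 4 was left out, at an adjusted p of 0.0382.

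The *srh* family had 8 members tested, of which 3 fell and 2 rose. The protein-coding *srh-48* (II:9380096-9384994, plus strand) had 2.8, 3.45, 3.21 and 2.58 CPM in exposed WT, against 6.81, 5.29, 6.3 and 4.69 CPM in unexposed WT, a log2 fold change of -0.95 ± 0.19 (edgeR adjusted p = 0.00266). Part of its exon sequence overlaps the pseudogene *C06C3.5* on the opposite strand. The pseudogene *srh-307* (V:18017904-18020014, minus strand) had 0.11, 0.211, 0.315 and 0.129 CPM in exposed WT, against 1.43, 0.701, 0.687 and 1.27 CPM in unexposed WT, and fell by 2.40 on the log2 scale (SE 0.47; edgeR adjusted p = 0.00211). For the pseudogene *srh-210* (V:4069424-4071542, minus strand) the levels were 0.275, 0.141, 0.315 and 0.258 CPM in exposed WT, against 0.922, 0.809, 0.63 and 0.95 CPM in unexposed WT. In all 3 the groups were apart, and *srh-210* had a log2 fold change of -1.71 ± 0.36 (edgeR adjusted p = 0.0033). Only 1 member of Sra was tested, the protein-coding *srab-26* (V:9876687-9879504, minus strand), with 0.715, 0.493, 0.252 and 0 CPM in exposed WT, against 1.79, 1.08, 1.32 and 1.14 CPM in unexposed WT. Its fall of 1.84 on the log2 scale (SE 0.62; edgeR adjusted p = 0.0321) was near the threshold. The adjusted p was 0.0532 without FW1256 replicate 2, 0.0914 without FW1256 replicate 3, 0.0884 without WT replicate 1, 0.0626 without WT replicate 3 and 0.0519 without WT replicate 4. It was 0.139 in 1 fit over all 3 groups and 0.0529 without the filter on low counts.

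Members that rose with FW1256 were few but included the most abundant. The pseudogene *srh-158* (V:17442581-17445668, plus strand) had 28.4, 37.7, 36.2 and 38.1 CPM in exposed WT, against 21.6, 27.1, 24.7 and 24.7 CPM in unexposed WT. Every exposed library was above every unexposed one, although the nearest values were 28.4 and 27.1 CPM, and the log2 fold change was 0.50 ± 0.11 (edgeR adjusted p = 0.00479). The protein-coding *srh-237* (V:17090379-17091714, plus strand) had 13.4, 7.39, 9.2 and 6.57 CPM in exposed WT, against 2.97, 4.15, 4.35 and 4.69 CPM in unexposed WT. It rose by 1.17 ± 0.25 on the log2 scale (edgeR adjusted p = 0.00381), with replicate 1 of the exposed group the highest. The pseudogene *srd-14* (IV:5637835-5640190, minus strand) had 4.07, 3.94, 5.92 and 4.64 CPM in exposed WT, against 2.41, 2.97, 2.92 and 3.23 CPM in unexposed WT, and a log2 fold change of 0.68 ± 0.20 (edgeR adjusted p = 0.0198). That call was lost without FW1256 replicate 3 (adjusted p = 0.0641) and without WT replicate 1 (adjusted p = 0.0546). The fourth member without overlap was the protein-coding *srj-14*, with 3.75 ± 0.644 CPM in exposed WT and 2.59 ± 0.536 CPM in unexposed WT, which was not called (log2 fold change 0.52 ± 0.23, edgeR adjusted p = 0.0797).

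**Figure D3:**
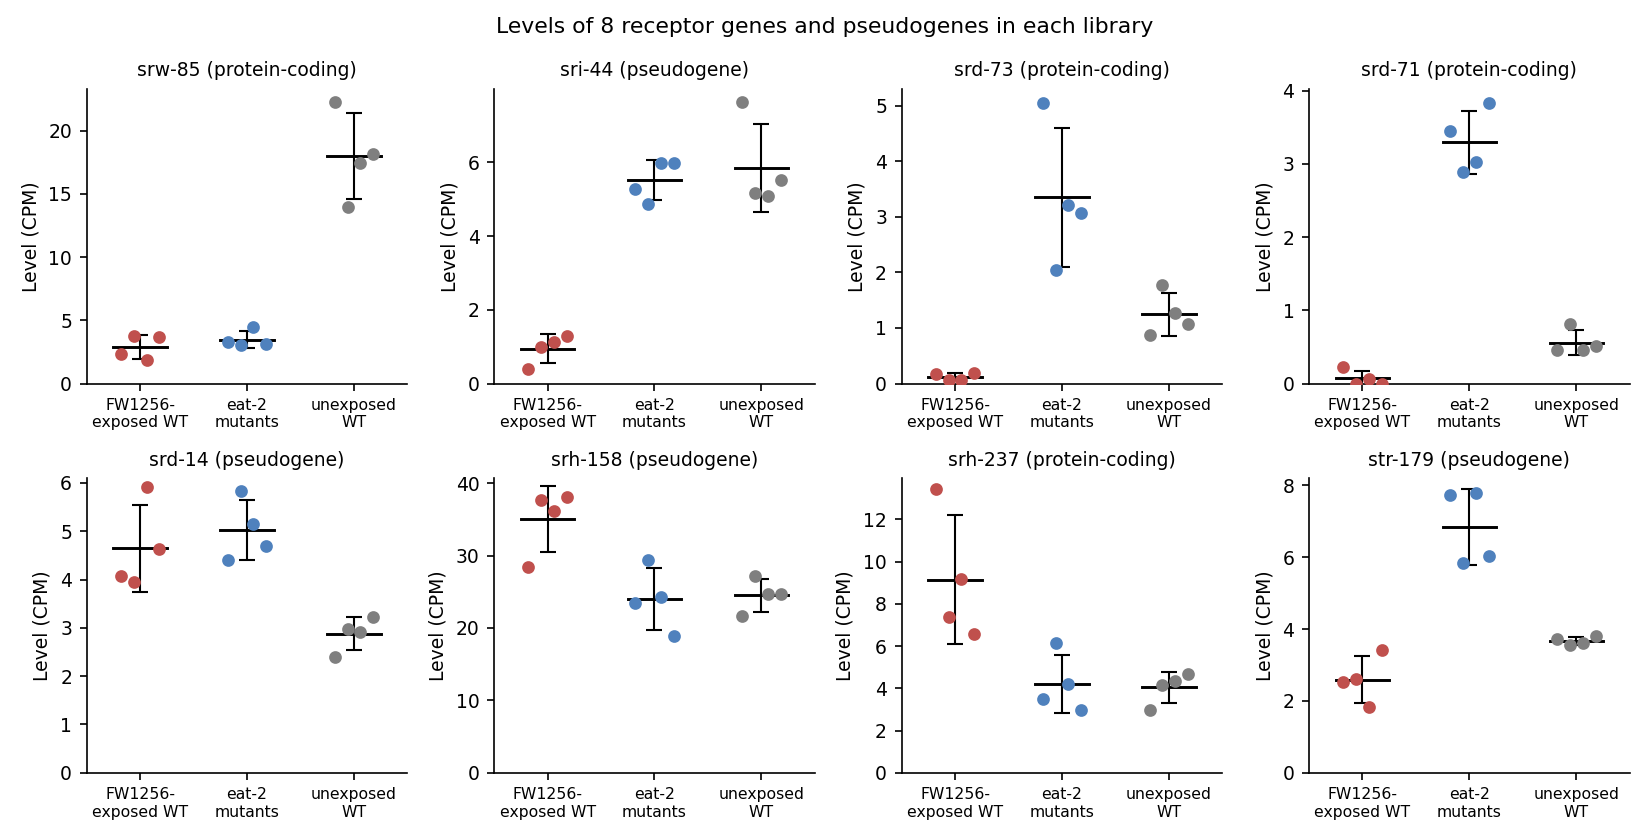
Level of 8 members in each library (vertical axes, CPM, each from 0, with its own range). Points are libraries, horizontal lines are means and bars are SD (n = 4 a group). *srw-85* was low in both other groups relative to unexposed WT, *sri-44* in FW1256-exposed WT alone, and *srd-73* and *srd-71* lay on opposite sides of unexposed WT in the other groups.

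A further 37 members did not pass the filter in this comparison, most of them with few counts in exposed WT. The pseudogene *srh-54* had 2 estimated counts over the 4 exposed libraries, against 78 in unexposed WT, a ratio of 0.0273 (95% interval 0.00325 to 0.102, counting error only). *srb-9* had 2 counts in exposed WT, against 33 in unexposed WT, a ratio of 0.0646 (0.00751 to 0.252). *sri-68* had 3 counts in exposed WT, against 28 in unexposed WT (ratio 0.114, 0.0222 to 0.370), and *srx-79* had 2, against 16 (ratio 0.133, 0.0149 to 0.566). These 4 pseudogenes were picked for having 3 counts or fewer in exposed WT, and the count rule then requires high counts elsewhere, so that the ratios are a description and no support for a fall.

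The second comparison set *eat-2* mutants against unexposed WT, and here the members lay mostly higher. Over all 65, 21 were higher in *eat-2* mutants with no overlap and 2 were lower, *srw-85* and the pseudogene *srh-163*, where 20.5% of all genes with a summed count of at least 60 were higher that way and 21.1% lower. Of 51 members tested, 18 rose and 1 fell, against 21.8% of all 3786 genes tested higher and 22.4% lower. Of 657 tested pseudogenes of other kinds, 22.7% were higher and 5.18% lower, and of the 39 tested pseudogene members 35.9% and 0%. The median log2 fold change was 0.74 over the 51 members and 0.02 over all genes tested. As above, members may have passed the filter through the group in which they were high. Among others, *srd-71*, *sri-49*, *sri-52*, *srg-19*, *srt-69* and *srsx-20* passed it through the *eat-2* libraries. Their differences from unexposed WT, given below, are a description. In this comparison 24 members were tested that had not been tested for FW1256.

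The *srd* family had the most members that rose in *eat-2* mutants. Of 7 tested 5 rose, and 6 of its 8 members did not overlap with unexposed WT. *srd-71* had 3.45, 2.89, 3.02 and 3.83 CPM in *eat-2* mutants, against 0.461, 0.809, 0.458 and 0.507 CPM in unexposed WT, the largest rise among the members tested (log2 fold change 2.54 ± 0.27, edgeR adjusted p = 0.00022). It passed the filter through the *eat-2* libraries, so this rise is a description. *srd-73*, which lies beside one *srd-71* locus, had 5.05, 2.05, 3.22 and 3.08 CPM in *eat-2* mutants, against 0.87, 1.78, 1.26 and 1.08 CPM in unexposed WT, and rose by 1.42 ± 0.33 on the log2 scale (edgeR adjusted p = 0.00742). The lowest mutant library was above the highest WT library for both genes. A pseudogene near the other *srd-71* locus, *srd-62* (V:2505636-2509407), did not pass the filter, with 1.25, 1.42, 1.48 and 0.522 CPM in *eat-2* mutants, against 0.0512, 0.162, 0 and 0.253 CPM in unexposed WT, and did not overlap. The protein-coding *srd-61*, on the other side of *srd-73*, varied widely, with 1.01, 2.73, 0 and 1.57 CPM in *eat-2* mutants, against 0, 1.19, 0.458 and 0.57 CPM in unexposed WT, so that no difference could be told (edgeR adjusted p = 0.321). Members of this family at other places rose as well. The pseudogene *srd-52* on chromosome II (II:7435852-7436999, minus strand), whose exons overlap the noncoding gene *K02A2.10*, had 2.38, 2.36, 2.7 and 1.86 CPM in *eat-2* mutants, against 1.08, 0.647, 0.802 and 1.08 CPM in unexposed WT (log2 fold change 1.36 ± 0.26, edgeR adjusted p = 0.0028). *srd-14* on chromosome IV had 4.4, 5.83, 5.15 and 4.7 CPM in *eat-2* mutants, against 2.41, 2.97, 2.92 and 3.23 CPM in unexposed WT (log2 fold change 0.80 ± 0.18, edgeR adjusted p = 0.00558). It was the only member called higher in both comparisons with unexposed WT, which share the WT libraries. The protein-coding *srd-70* had a log2 fold change of 1.01 ± 0.31 (edgeR adjusted p = 0.0252), and its groups did not overlap.

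On chromosome II, 4 *sri* pseudogenes lie within 2652841-2670075. The pair at one end rose in *eat-2* mutants. *sri-52* (II:2655339-2656475, plus strand) had 0.713, 0.788, 1.74 and 1.04 CPM in *eat-2* mutants, against 0.102, 0.27, 0.0573 and 0.38 CPM in unexposed WT, without overlap (log2 fold change 2.38 ± 0.55, edgeR adjusted p = 0.00662). *sri-49* (II:2652841-2654464, minus strand) had 0.713, 1.31, 2.19 and 0.813 CPM in *eat-2* mutants, against 0.102, 0.378, 0.229 and 0.76 CPM in unexposed WT, with 1 WT library inside the mutant range (log2 fold change 1.78 ± 0.58, edgeR adjusted p = 0.0315). Its adjusted p ran between 0.0611 and 0.0989 when WT replicate 1, 2 or 3 or *eat-2* replicate 2 or 3 was left out. The other pair, *sri-55* and *sri-59*, lies within *sri-57* on the same strand, and neither passed the threshold, with log2 fold changes of 0.41 ± 0.26 and 0.74 ± 0.29. *sri-44*, elsewhere on chromosome II, had 5.29, 4.88, 5.98 and 5.98 CPM in *eat-2* mutants, against 7.63, 5.18, 5.1 and 5.51 CPM in unexposed WT, and its groups overlapped (log2 fold change -0.08 ± 0.18, edgeR adjusted p = 0.731).

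Of the Srg superfamily, which holds receptors for ascaroside pheromones in its *srg* and *srx* families, 8 of 11 members were tested and 5 rose in *eat-2* mutants, while none fell. The pseudogene *srg-19* (IV:15637236-15640521, minus strand) had 1.19, 0.84, 1.74 and 1.04 CPM in *eat-2* mutants, against 0.461, 0.27, 0.515 and 0.633 CPM in unexposed WT (log2 fold change 1.35 ± 0.36, edgeR adjusted p = 0.0143). The protein-coding *srt-69* (V:5263948-5265681, minus strand) had 1.19, 0.63, 1.03 and 1.97 CPM in *eat-2* mutants, against 0.512, 0.486, 0.573 and 0.38 CPM in unexposed WT. Both genes were apart between groups, and *srt-69* had a log2 fold change of 1.29 ± 0.39 (edgeR adjusted p = 0.0237) that missed the threshold without WT replicate 4 (adjusted p = 0.0547) and without *eat-2* replicate 4 (adjusted p = 0.0702). The pseudogenes *srx-15*, *srx-35* and *srt-72* rose by 0.98 ± 0.28, 1.15 ± 0.33 and 1.26 ± 0.40 on the log2 scale. None of the 11 had passed the filter in the comparison of FW1256 with unexposed WT, where 4 were lower without overlap. All 3 Sra members were tested in *eat-2* mutants and none was called.

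In the remaining families, *str-179* (II:1746189-1747582, minus strand) had 7.72, 5.83, 7.78 and 6.04 CPM in *eat-2* mutants, against 3.74, 3.56, 3.61 and 3.8 CPM in unexposed WT, a rise of 0.89 ± 0.16 on the log2 scale (edgeR adjusted p = 0.00201). The unexposed WT libraries were close together and the mutant libraries all above them. The pseudogene *srbc-80* (V:16969039-16970965, plus strand), of the family that holds the dauer pheromone receptors SRBC-64 and SRBC-66, had 6.12, 6.88, 5.28 and 6.09 CPM in *eat-2* mutants, against 3.64, 3.4, 3.44 and 3.42 CPM in unexposed WT (log2 fold change 0.81 ± 0.15, edgeR adjusted p = 0.00244). The pseudogene *srsx-20* (V:9025513-9026540, minus strand) had 0.891, 1.05, 0.836 and 0.697 CPM in *eat-2* mutants, against 0.256, 0.432, 0.458 and 0.253 CPM in unexposed WT (log2 fold change 1.30 ± 0.34, edgeR adjusted p = 0.0129). These also did not overlap. In the *srh* family, with 13 members tested, the pseudogenes *srh-210* and *srh-198* rose. *srh-210* had 2.44, 1.05, 1.22 and 1.86 CPM in *eat-2* mutants, against 0.922, 0.809, 0.63 and 0.95 CPM in unexposed WT, and a log2 fold change of 0.98 ± 0.33 (edgeR adjusted p = 0.0368). That call did not hold when any of the 4 WT libraries or *eat-2* replicate 1 or 4 was left out (adjusted p 0.0531 to 0.113), nor with DESeq2 (adjusted p = 0.0632) or without the filter on low counts (edgeR adjusted p = 0.0527).

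The exception was *srw-85*, the only member called lower in *eat-2* mutants. It had 3.27, 3.05, 4.44 and 3.13 CPM in *eat-2* mutants, against 22.3, 14, 17.5 and 18.2 CPM in unexposed WT, a log2 fold change of -2.37 ± 0.19 (edgeR adjusted p = 6.71e-05). In another member lower without overlap, *srh-163*, the mutants had 0.356, 0.368, 0.129 and 0.406 CPM, against 1.18, 0.486, 0.859 and 0.507 CPM in unexposed WT, and it did not pass the filter. The abundant *srh-158* and *srh-237* had 24 ± 4.34 and 4.2 ± 1.39 CPM in *eat-2* mutants, against 24.5 ± 2.26 and 4.04 ± 0.747 CPM in unexposed WT (mean ± SD, n = 4 each), with overlapping groups. Their log2 fold changes were -0.03 ± 0.14 and 0.06 ± 0.26 and were not called, which does not show that the levels were equal.

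Set side by side, the comparisons with unexposed WT, which share its 4 libraries, called few members in both. Of 27 members tested in both, *srd-73* and *srh-210* were lower with FW1256 and higher in *eat-2* mutants, *srd-14* was higher in both, and *srw-85* lower in both. A further 8 were called lower with FW1256 alone, 2 higher with FW1256 alone (*srh-158* and *srh-237*) and 15 higher in *eat-2* mutants alone, counting members tested in 1 comparison or both. A member called in 1 comparison is not thereby shown to differ between them, and that difference was tested directly.

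**Figure D4:**
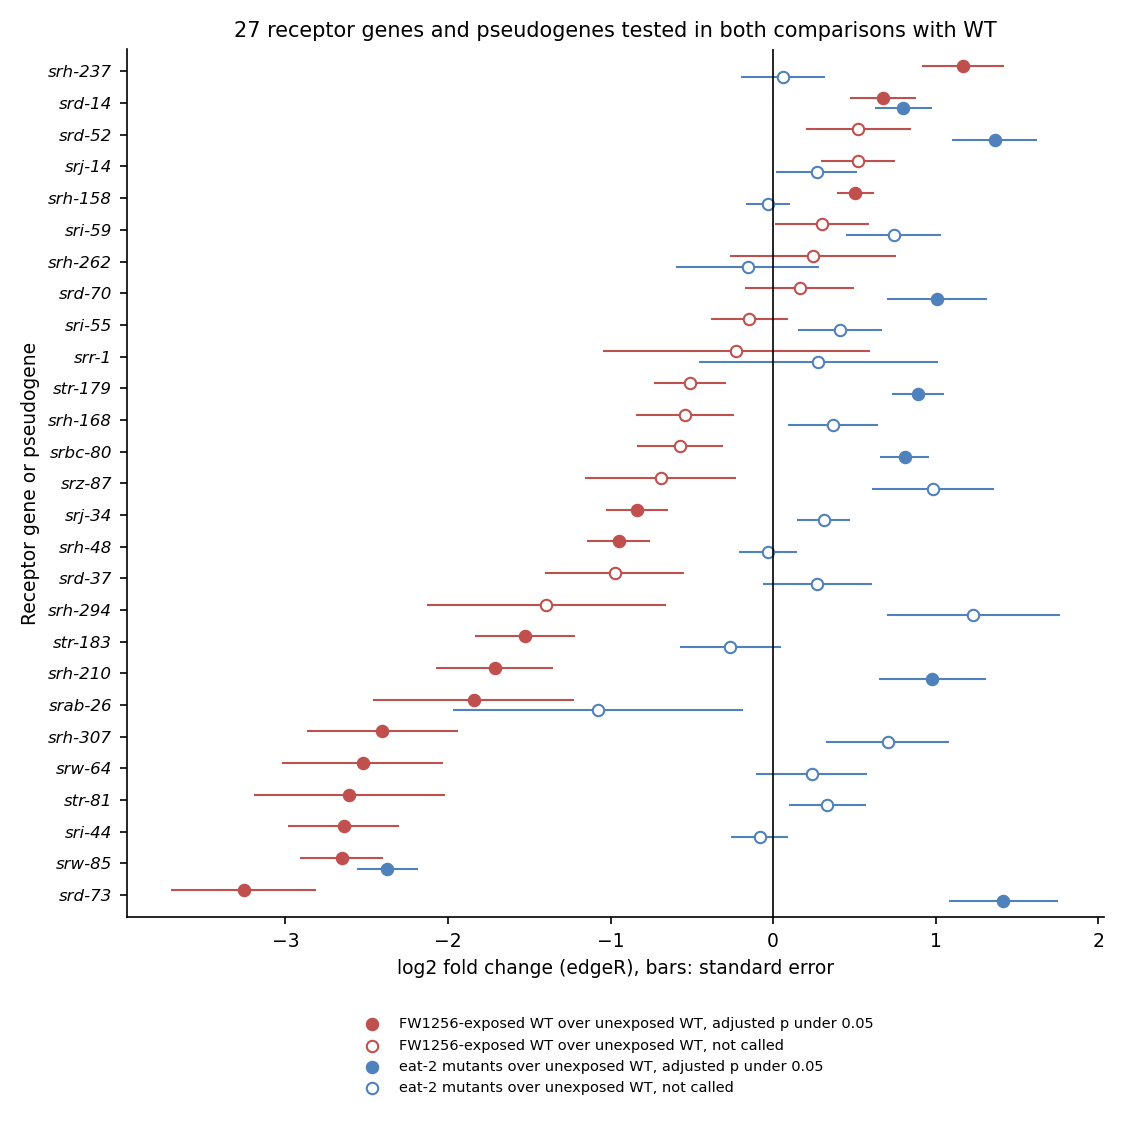
Log2 fold change against unexposed WT of the 27 members tested in both comparisons (horizontal axis), for FW1256-exposed WT (red, upper of each pair) and *eat-2* mutants (blue, lower). Filled points passed an edgeR adjusted p of 0.05, open points did not, and bars are standard errors. The values for *srd-73* lie furthest apart, at -3.26 and 1.42, while those for *srw-85* lie together at -2.65 and -2.37.

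Between FW1256-exposed WT and *eat-2* mutants, 39 of 65 members were lower without overlap in FW1256-exposed WT and 2 were higher (*srh-237* and the protein-coding *srsx-36*), where 32.8% of all genes with a summed count of at least 60 were lower and 30.1% higher. Of 45 members tested, 33 were lower and 2 higher, against 36.2% and 33.1% of 3715 genes. Of 617 tested pseudogenes of other kinds, 51.1% were lower and 13.9% higher, and of the 35 tested pseudogene members 77.1% and 2.86%. The median log2 fold change was -1.39 over the 45 members and -0.05 over all genes tested. Here too members may have passed the filter through the group in which they were high, so these values describe the tested members alone. *srd-71*, *srd-73* and *srg-19* passed it through the *eat-2* libraries, and their differences are a description. Among the members tested *srd-71* had the largest difference, on 5 counts in FW1256-exposed WT, against 226 in *eat-2* mutants (log2 fold change -5.30 ± 0.59, edgeR adjusted p = 3.12e-05). *srd-73* differed by -4.68 ± 0.44 (edgeR adjusted p = 1.11e-05), and *srg-19* by -3.58 ± 0.45 (edgeR adjusted p = 6.96e-05). The 2 members called higher in FW1256-exposed WT were *srh-237*, with a log2 fold change of 1.10 ± 0.29, and *srh-158*, with 0.53 ± 0.14. For *srw-85* and *srd-14* no difference was detectable between exposed WT and mutants (log2 fold changes -0.28 ± 0.27 and -0.13 ± 0.19, edgeR adjusted p = 0.374 and 0.558).

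The counts were split by gene type. Of 15 protein-coding members, 7 were lower without overlap in FW1256-exposed WT than in unexposed WT and 2 higher, and 1 was lower and 4 were higher in *eat-2* mutants. As shares these are 46.7% lower and 13.3% higher with FW1256 and 6.67% lower and 26.7% higher in *eat-2* mutants. Other protein-coding genes with a summed count of at least 60 had 20.4% lower and 26.1% higher with FW1256, and 25.4% lower and 19.4% higher in *eat-2* mutants, so that the share of protein-coding members higher in the mutants was near that of other genes. Of 50 pseudogenes, 19 were lower and 2 higher with FW1256, and 1 was lower and 17 were higher in *eat-2* mutants. Protein-coding members, which include the abundant *srw-85*, summed to 19.85 to 26.34 CPM in FW1256-exposed WT, 31.69 to 37.17 CPM in *eat-2* mutants and 37.01 to 44.03 CPM in unexposed WT, so that the mutants were not above unexposed WT. Pseudogene members, which include *srh-158*, summed to 54.5 to 71.1, 95.4 to 105.6 and 67.6 to 81.3 CPM in the same groups, so that FW1256-exposed and unexposed WT overlapped. Pseudogenes outside the chemoreceptor families were more often lower than higher with FW1256 and more often higher than lower in *eat-2* mutants too. Of 756 with a summed count of at least 60, 30.2% were lower and 14.3% higher without overlap in FW1256-exposed WT than in unexposed WT, and 4.89% were lower and 23.8% higher in *eat-2* mutants. The same shares of the members were 26 and 4 of 65 (6.15% higher) with FW1256, and 3.08% and 32.3% in *eat-2* mutants. Whether the members differ from other pseudogenes was not tested.

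Genes that act with the receptors were followed in a list of 83 chemosensory signalling genes, of which 15 were in the tables. In FW1256-exposed WT 5 of 13 tested fell and 1 rose, and in *eat-2* mutants 3 fell and 4 rose. Over all genes tested, 24.8% were lower and 25.5% higher with FW1256, and 22.4% were lower and 21.8% higher in *eat-2* mutants. The same shares stand beside the marker lists below. *tir-1*, the SARM adaptor upstream of receptor choice in the AWC olfactory neurons, had 147 ± 33.6 CPM in FW1256-exposed WT, 1327 ± 151 CPM in *eat-2* mutants and 606 ± 155 CPM in unexposed WT (mean ± SD, n = 4 each). Its log2 fold change against unexposed WT was -2.05 with FW1256 and 1.13 in the mutants, and both passed. Which tissue of these whole worms held the *tir-1* RNA was not tested. *cng-1*, a cyclic nucleotide-gated channel gene, had 3.69 ± 0.796 CPM in FW1256-exposed WT and 25.1 ± 7.55 CPM in unexposed WT, a log2 fold change of -2.78. In *eat-2* mutants *cng-1* had 27.9 ± 5.48 CPM and was not called (log2 fold change 0.15, edgeR adjusted p = 0.623). *gpa-3*, a G protein alpha subunit gene of chemosensory neurons, had 3.55 ± 0.845 CPM in *eat-2* mutants and 1.81 ± 0.578 CPM in unexposed WT, a log2 fold change of 0.96. With FW1256 *gpa-3* was not called (log2 fold change -0.16, edgeR adjusted p = 0.719). The gamma subunit gene *gpc-1* also rose in *eat-2* mutants, by 1.32, and was not called with FW1256 (log2 fold change -0.46, edgeR adjusted p = 0.146). *gpa-9*, *gpa-17* and *sek-1* fell with FW1256 too, by 1.15, 1.01 and 0.46, while *gpb-1* rose by 0.37. In *eat-2* mutants *sek-1* rose by 0.30 and *egl-4* fell by 0.25. *odr-4* and *odr-8*, which are needed to carry receptors to the cilia, had log2 fold changes of 0.07 and 0.04 with FW1256, which were not called, and both fell in *eat-2* mutants, by 0.43 and 0.13.

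Markers of cilia, neurons and glia, the cells in which receptors are made and supported, were set beside the members. Of 72 cilia genes 12 were measured, and 3 rose and 1 fell of 9 tested with FW1256, and 2 fell of 10 in *eat-2* mutants. With FW1256, *che-10*, *xbx-6* and *unc-101* rose by 0.51, 0.19 and 0.31 on the log2 scale, and *dyf-2* fell by 0.99. In *eat-2* mutants *xbx-6* and *hyls-1* fell by 0.12 and 0.17. *dyf-1* was listed at 0 in all 4 libraries of FW1256-exposed WT, with 5.26 ± 2.85 CPM in *eat-2* mutants and 2.98 ± 2.04 CPM in unexposed WT. It was not tested with FW1256, and in *eat-2* mutants it was not called (log2 fold change 0.81, edgeR adjusted p = 0.313). Of 41 pan-neuronal genes 13 were measured, *egl-3* at 0 in all libraries, and 4 of 11 tested rose in each comparison with unexposed WT. Their summed levels were 2589 to 2767 CPM in FW1256-exposed WT, 2383 to 2439 CPM in *eat-2* mutants and 2242 to 2492 CPM in unexposed WT. Most of each sum was *tbb-1*, with means of 2175, 1734 and 1872 CPM in the same groups. The sums therefore say little about the other listed genes. Of 21 genes of sheath and socket glia 5 were measured, with 1 higher and 2 lower of 4 tested with FW1256 and 1 higher in *eat-2* mutants.

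Markers of other tissues were set beside the members as well. Germline and oocyte genes (17 of 49 measured, all tested) had 7 higher and 0 lower in FW1256-exposed WT and 0 higher and 16 lower in *eat-2* mutants. Their summed levels were 22342 to 23205 CPM in FW1256-exposed WT, 14905 to 16073 CPM in *eat-2* mutants and 19320 to 21600 CPM in unexposed WT, without overlap, the reverse of the members' order. Intestinal genes (13 of 45 measured) had 3 higher and 7 lower with FW1256 and 8 higher and 1 lower in *eat-2* mutants, at 31061 to 36087, 41011 to 47021 and 33093 to 35594 CPM in FW1256-exposed WT, *eat-2* mutants and unexposed WT. Body wall muscle genes (21 of 38 measured) had 17 higher and 0 lower in both. Sperm genes (5 of 54 measured) had 1 higher and 1 lower with FW1256 and 2 lower in *eat-2* mutants, and genes of the hypodermis and cuticle (8 of 46 measured) had 1 higher with FW1256 and 0 called in *eat-2* mutants. The part of these tissues in the members' levels was not tested.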

How the data were processed

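RNA of whole worms was measured in 12 libraries. The authors mapped paired reads to the WBcel235 transcriptome with kallisto 0.46.0 and summarized transcripts to genes with tximport in length-scaled units, and the deposited values are estimated counts per gene without normalization between libraries. The submitters' notes also name DESeq2 1.24.0, and the deposited tables of the authors' own comparisons (fold changes and p-values) were not used. Members and gene lists were chosen with earlier results of these data known.

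Groups were taken from the sample labels. Symbols and positions came from Ensembl release 115, and symbols of pseudogenes from RefSeq by WormBase sequence name at identical coordinates. Estimated counts were rounded, filtered with filterByExpr, scaled with TMM and tested by glmQLFit and glmQLFTest of edgeR 4.0.16 (R 4.3.3), in a separate fit over all genes of the 8 libraries of each pair of groups. Adjusted p-values follow Benjamini-Hochberg over all genes tested, and genes under 0.05 were called. CPM use TMM factors over 12 libraries. The steps were tested on simulated counts. At a mean of 3 to 50 counts, 2 of 50 changes of 2-fold were recovered in each comparison with unexposed WT. Of 50 changes of 4-fold at these counts, 18 were recovered with FW1256 and 21 in *eat-2* mutants. At a mean over 50 counts, 42 and 45 of 50 changes of 2-fold were recovered. Members with few counts that were not called may therefore still differ between groups. Ratios of groups with 3 counts or fewer have exact 95% intervals, which cover counting error only. No 2 libraries of a group agreed within sampling noise.

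The genes named by rule were the 10 members with the largest summed count, the 8 largest rises and 8 largest falls called in each comparison with unexposed WT, members called in opposite directions, listed receptors with a described ligand or cell, and the 3 members and 3 family genes nearest the count rule. Genes beyond these were named after their values were seen. Alternatives were DESeq2 1.42.0, other size factors, filters, thresholds and member rules, 1 fit over all groups, a replicate block and each library left out. The libraries' totals, 14769332 to 19199982 estimated counts, limit precision for genes this low. Receptor sequences were not used here.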

Additional observations from a re-analysis of the deposited data

Results flagged for a closer look

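In 84 groups of 4 libraries, for the members named by rule and the summed levels, 6 groups had 1 library far from the other 3, and chance alone sets a library apart in about 1 of 20 such groups. Summed over the members, FW1256-exposed WT replicate 1 had 80.8 CPM and the other 3 had 90.9 to 91.7 CPM. In unexposed WT, *srbc-80* was at 3.64 CPM in replicate 1 (others 3.40 to 3.44), *srd-71* at 0.809 CPM in replicate 2 (others 0.458 to 0.507) and *sri-44* at 7.63 CPM in replicate 1 (others 5.10 to 5.51). In *eat-2* mutants, *sri-35* was at 0.755 CPM in replicate 4 (others 0.416 to 0.450) and *srw-85* at 4.44 CPM in replicate 3 (others 3.05 to 3.27). None of these libraries was left out of the reported values, and the calls for *srbc-80*, *srd-71*, *sri-44* and *srw-85* in the report held without each of them.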

How the results depend on the processing

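Of the calls in the report, no member changed direction under any refit. For FW1256 against unexposed WT, 14 members were called (3 higher, 11 lower). The count was 25 (22 lower) in 1 fit over all 3 groups, 25 (22 lower) with DESeq2, 24 (21 lower) without a filter, 7 (4 lower) at a mean of at least 50 counts and 6 (1 higher, 5 lower) for protein-coding members, and 1 higher member changed at least 2-fold. For *eat-2* mutants, 19 were called (18 higher, 1 lower), against 8 (7 higher) at an adjusted p under 0.01, 4 (3 higher) at a mean of at least 50 counts and 5 (4 higher) for protein-coding members, and 2 were lower in 1 fit over all groups. For FW1256 against *eat-2* mutants, 35 were called (2 higher, 33 lower), against 7 (5 lower) at a mean of at least 50 counts and 7 (1 higher, 6 lower) for protein-coding members, and 1 higher member changed at least 2-fold. The first of these filters and the member rule test fewer members, while the fit over all groups and the unfiltered fits test more. Leaving out single libraries gave 12 to 19 calls with FW1256, of which 2 to 3 were higher and 10 to 16 lower. The same gave 14 to 19 calls in *eat-2* mutants, 13 to 17 higher and 1 to 2 lower, and 32 to 36 between these groups, 2 higher and 30 to 34 lower. Of 26 calls of members named by rule, 21 held in every refit that tested them. Log2 fold changes that were not called changed sign in *eat-2* mutants against unexposed WT when single libraries were left out, and ran between -0.16 and 0.069 for *srh-158*, between -0.20 and 0.19 for *srh-237*, between -0.12 and 0.062 for *srh-48* and between -0.15 and 0.070 for *sri-44*.

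Whether the replicate numbers pair the libraries could not be settled. Deviations of same-numbered libraries correlated weakly, at between -0.04 and 0.24, with the highest value for replicate 4 of *eat-2* mutants and unexposed WT. With the replicate number as a block, 14 members were called with FW1256, of which 3 were higher and 11 lower. In *eat-2* mutants the block gave 19 calls, 18 of them higher and 1 lower, and between the groups 31, with 2 higher and 29 lower. The block took the adjusted p of *srt-69* in *eat-2* mutants to 0.0507.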
